A study of Mus musculus with 14 samples.

Results

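The genes described here are 43 collagens and other genes of the extracellular matrix, taken by symbol from the 23282 genes of a count table of epididymal white adipose tissue (eWAT). All 43 were found, each on 1 row, and they were sorted into 11 groups by role, from fibrillar collagens to the inhibitors of metalloproteinases. The table holds 14 QuantSeq 3′ libraries, 1 per mouse, from male wild type C57BL/6J mice bought at 4 weeks of age and kept for 20 weeks on a normal diet or on a Western diet (WD). The labels assign 4 normal diet controls and 5 WD mice to batch 1 and 5 further normal diet controls to batch 2, and they do not say what a batch stands for. The comparison asks how the matrix transcripts of visceral fat differ between the diets. Because all WD libraries belong to batch 1, diet and batch cannot be told apart where WD is set against the batch 2 controls.

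Fat cells lie in a scaffold that they and the stromal cells around them secrete. Fibrillar collagens form its load-bearing fibres, and collagen IV, laminins and nidogens form the basement membrane around each fat cell. Collagen VI forms microfibrils between these layers. Small proteoglycans and matricellular proteins tune fibre assembly, lysyl oxidases cross-link the fibres, and metalloproteinases and their inhibitors remodel them. The matrix of visceral fat is known to be remodelled when the depot expands in obesity.

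Levels are given in CPM, counts scaled to a common library total, after TMM scaling over the 14 libraries. QuantSeq reads come from the 3′ end of a transcript, so a count does not grow with gene length. Library totals were 10278970 to 13712254 counts, at which 3 counts, taken as the floor, equal 0.219 to 0.292 CPM. Levels under this floor are printed as measured but are poorly determined. A pair of batch 1 controls stood apart. In batch 1 control 1 the 16 epididymis markers held 13.7% of all counts, against at most 0.00569% in each other library, and the summed level of 10 adipocyte markers was 6587 CPM against 26660 to 67930 CPM elsewhere. Batch 1 control 4 had the fewest detected genes, 7999, and 10 of the 43 members at or under 3 counts (at most 3 in any other library). Its level of the adipocyte gene Cfd, picked after its values were seen, was 771 CPM, against 772 to 2089 CPM in the WD group, 1256 to 8253 CPM in the other batch 1 controls and 8311 to 17320 CPM in batch 2. For the 12 members given in full, the fold change within batch 1 is given with and without both controls.

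The stretches before the start sites of Bgn, Col3a1 and Mmp14 are shown because these genes carry different patterns below. Bgn and Col3a1 were higher in WD than in both control batches on average. Mmp14 was lower in every batch 2 control than in every batch 1 library of either diet. RefSeq windows on GRCm38.p6 were matched for 27 of the 43 members, and each sequence is the 250 bases that end just before the start, on the plus strand. Capitals mark the TATA box TATAAA, the CCAAT box CCAAT, the GC box GGGCGG and the AP-1 motif TGANTCA, each searched on both strands.
Bgn, chrX:73483351-73483600: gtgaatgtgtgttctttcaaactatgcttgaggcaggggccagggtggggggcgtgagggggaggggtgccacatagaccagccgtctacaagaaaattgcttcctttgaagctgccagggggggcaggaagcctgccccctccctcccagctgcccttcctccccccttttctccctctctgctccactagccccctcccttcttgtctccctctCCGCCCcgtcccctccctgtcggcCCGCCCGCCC
Col3a1, chr1:45311288-45311537: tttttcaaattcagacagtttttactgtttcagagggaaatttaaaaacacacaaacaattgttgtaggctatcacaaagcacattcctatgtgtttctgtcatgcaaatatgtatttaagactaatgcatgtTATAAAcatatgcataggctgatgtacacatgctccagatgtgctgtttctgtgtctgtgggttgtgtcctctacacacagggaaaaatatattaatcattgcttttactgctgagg
Mmp14, chr14:54431348-54431597: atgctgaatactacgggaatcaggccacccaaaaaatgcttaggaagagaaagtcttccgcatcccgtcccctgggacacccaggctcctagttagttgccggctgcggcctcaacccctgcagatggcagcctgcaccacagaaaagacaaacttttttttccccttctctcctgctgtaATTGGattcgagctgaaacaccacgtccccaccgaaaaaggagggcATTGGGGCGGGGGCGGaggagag
Bgn has 3 copies of GGGCGG on the minus strand, starting 34, 10 and 6 bases before the start, the last 2 overlapping. Col3a1 has 1 TATAAA, which begins 117 bases before its start. Mmp14 has 2 copies of CCAAT on the minus strand and 2 of GGGCGG on the plus strand, and one CCAAT shares a base with the first GGGCGG. Among the 27 members, 17 had GGGCGG (63.0%, against 32.7% of all 32851 windows), 12 had CCAAT (44.4% against 33.8%), 5 had TATAAA (18.5% against 12.4%) and 2 had TGANTCA (7.41% against 6.75%). A member was counted if any of its windows matched, and the 27 members had 31 windows. The share over all is counted per window, so the 2 shares are not quite alike. A match describes the letters in the window and is not evidence of a bound site.

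Within batch 1, more members were higher than lower in WD, but no single gene passed the test. All 43 members passed edgeR's filter on low counts, 32 with a log2 fold change above 0 and 11 below (74.4% above, against 51.8% of the 12157 genes tested). The members' median log2 fold change was 0.35, against 0.03 over all genes. At an FDR under 0.05 edgeR called 0 members and 0 of all genes (0.0%), and DESeq2, limma-voom and limma on the deposited log2 values also called 0 members. At an unadjusted p under 0.05, 2 members were higher in WD (Bgn and Timp2; background 3.35%) and 0 were lower (background 1.82%). Every WD library lay above every batch 1 control for Col5a2 and Col5a3 (background 3.03%). Without batch 1 controls 1 and 4, the number of members with an unadjusted p under 0.05 was 15 (background 9.42%) and edgeR still called 0 of them, although it then called 108 of all genes (0.796%). The members' median was 0.42 without this pair, 0.14 without control 1 alone and 0.70 without control 4 alone.

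Against the batch 2 controls, 9 members were higher in WD at an FDR under 0.05 and 1 was lower, where 3.93% and 2.48% of the 12070 genes tested were called (6.4% in either direction). The higher ones were Lox, Bgn, Col1a1, Col3a1, Mmp14, Sparc, Col16a1, Postn and Lum, and the lower one was Col15a1. By fold change alone, 33 members were higher (76.7%, against 49.8% of all genes) and 10 lower, with a median of 0.62 against -0.0034 over all genes. Every WD library exceeded every batch 2 control for 9 members (background 4.99%), which were Col3a1, Col5a2, Sparc, Col1a1, Mmp14, Lox, Postn, Col16a1 and Bgn. In 1 fit of all 14 libraries, whose spread includes the batch 1 controls, 2 of the 10 calls remained, Lox and Bgn (background 1.06%). DESeq2 called 18 members (background 9.57%), the same 10 and Col4a1, Col5a2, Col6a1, Col6a2, Col6a3, Mmp2, Timp2 and Tnc. Limma on the deposited log2 values called 15 (background 8.53%), the same 10 and Col5a2, Col6a2, Mmp3, Timp2 and Tnc. Limma-voom called 11 (background 6.91%), without Lum and with Col5a2 and Timp2. Where a gene is said below to pass or not to pass, the test is edgeR's with the pair of groups fitted alone. In the same comparison all 10 macrophage markers were called higher and 8 of 10 adipocyte markers lower, and their part in the members' differences was not tested. In bulk tissue, fewer cells of a type and less RNA per cell cannot be told apart. Lox, Bgn, Col1a1 and Col3a1 stayed under the threshold when each library was left out in turn. Mmp14 was lost without WD library 3, Sparc and Col16a1 without batch 2 control 1, and Col15a1 without WD library 1, WD library 3 or batch 2 control 3. Postn was lost without WD library 3 or 5 or batch 2 control 1, 2, 3 or 5, and Lum without WD library 1, 4 or 5 or batch 2 control 1, 2, 4 or 5.

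Between the control batches, 42 members could be tested, since Mmp3 did not pass the filter. On the same diet, 14 of them were higher and 28 lower in batch 2 (33.3% higher, against 49.9% of all genes). The members' median log2 fold change was -0.15, against -0.0024 over all genes, and -0.37 to 0.077 with 1 library left out. edgeR called 0 of the 42 members and 0 of all 12106 genes (0.0%) at an FDR under 0.05. In edgeR 3 members had an unadjusted p under 0.05, Lox, Mmp14 and Col1a1, all lower in batch 2 (background 7.39% in either direction). DESeq2 called 2, Lox and Mmp14 (background 0.937%). Lox and Mmp14 were below every batch 1 control in every batch 2 library (background 1.16%), and Col14a1 was above (background 4.13%). Limma-voom and limma on the deposited log2 values called 0 members.

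With all 9 controls pooled and no term for the batch, 1 member was called, Bgn, with a log2 fold change of 1.504 (FDR 0.00972; background 0.53%). Only Col5a2 of the 43 had every WD library above all 9 controls (background 1.13%).

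**Figure D1:**
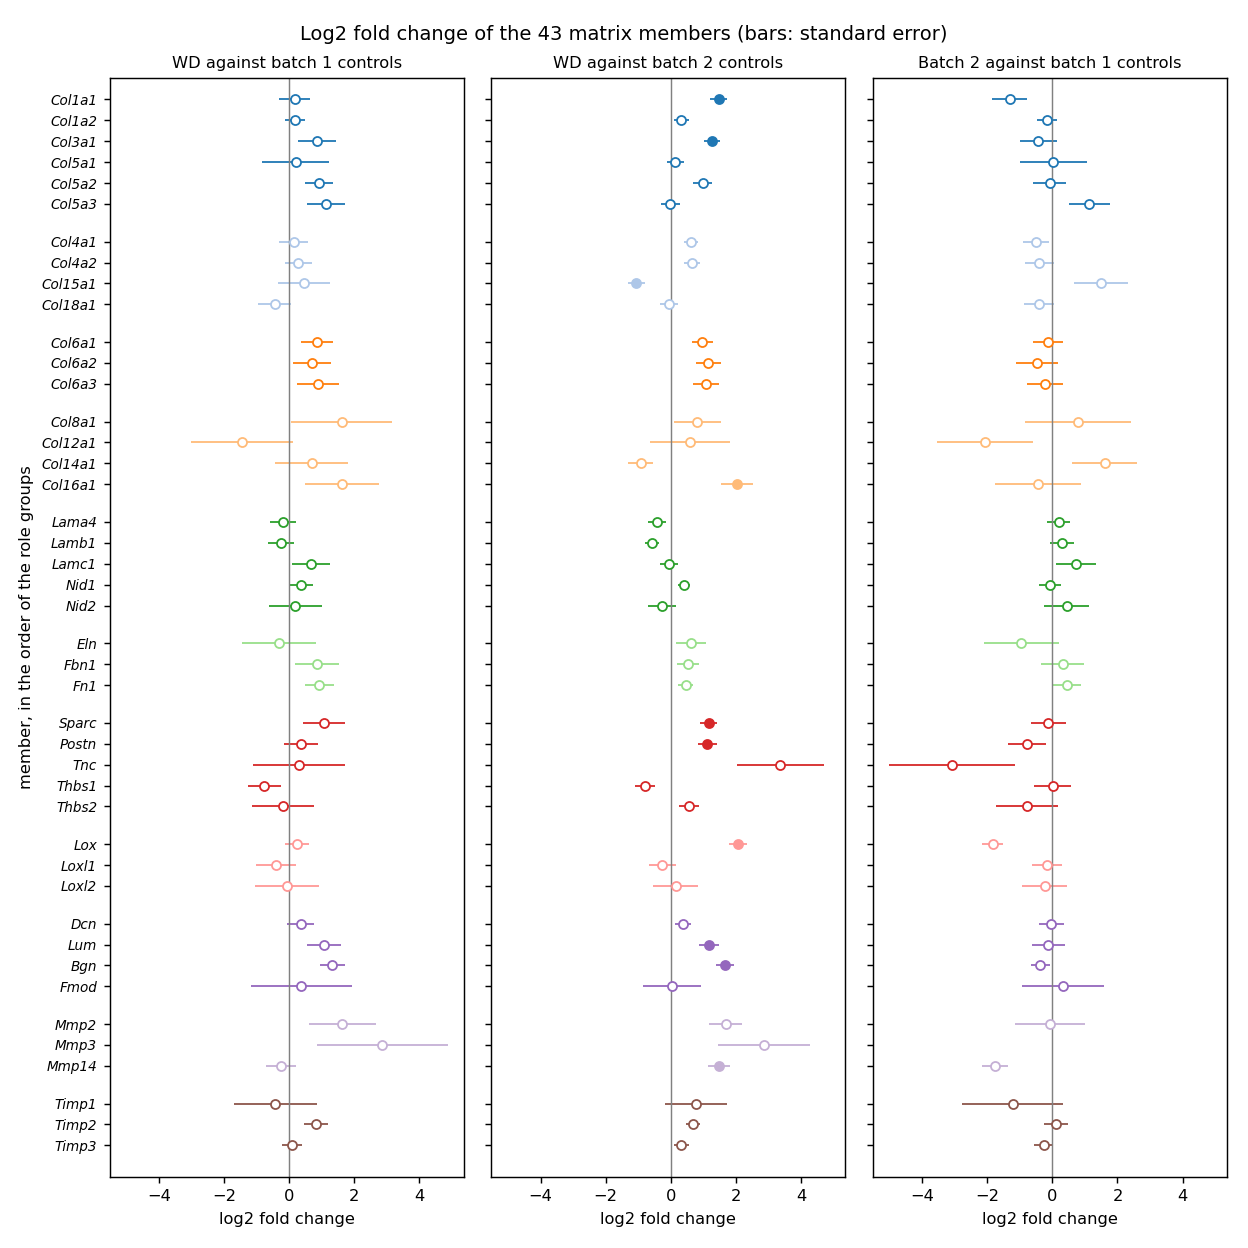
Log2 fold change of each member (x axis) in the 3 comparisons, ordered and coloured by role group (y axis), with bars of 1 standard error. Filled points have an FDR under 0.05, and they occur only in the middle panel, where 9 members lie above 0 and 1 below.

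Among the fibrillar collagens, 5 of 6 had a fold change above 0 against the batch 2 controls and 2 were called, Col1a1 and Col3a1. Col1a1 encodes the major chain of collagen I. Col1a1 measured 74.8, 102, 94.7 and 430.2 CPM in batch 1 controls 1 to 4 and 196, 233, 163, 212 and 185 CPM in WD libraries 1 to 5. Col1a1 in batch 2 controls 1 to 5 was at 87.7, 28.8, 71.3, 105 and 62.7 CPM. All 5 WD libraries exceeded all batch 2 controls, whereas batch 1 control 4 exceeded all of them. The log2 fold change was 1.47 (SE 0.27, FDR 0.00305) against the batch 2 controls and 0.17 (SE 0.47) against the batch 1 controls. The latter became 1.11 without batch 1 control 4 and 1.01 without controls 1 and 4. For batch 2 against batch 1 controls, on the same diet, Col1a1 had -1.31 (SE 0.53, FDR 0.609). With 1 library left out this ranged from -1.57 to -0.34. Col3a1 encodes collagen III, which forms fibrils together with collagen I. Col3a1 measured 53.4, 157, 275 and 746 CPM in batch 1 controls 1 to 4 and 495, 424, 389, 818 and 636 CPM in WD libraries 1 to 5. Col3a1 in batch 2 controls 1 to 5 was at 254, 176, 215, 338 and 167 CPM. The WD and batch 2 ranges did not overlap, and batch 1 control 4 lay within the WD range. The fold change was 1.26 (SE 0.25, FDR 0.00461) against batch 2 and 0.84 (SE 0.58) within batch 1, where it was 1.36 without controls 1 and 4.

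The collagen V chains, which start and size the fibrils, did not pass edgeR's test in the 3 comparisons, whereas DESeq2, limma-voom and limma on the log2 values called Col5a2 against batch 2. Col5a2 measured 12.1, 61.0, 62.9 and 68.2 CPM in batch 1 controls 1 to 4 and 97.3, 84.2, 95.8, 81.6 and 120.5 CPM in WD libraries 1 to 5. Col5a2 in batch 2 controls 1 to 5 was at 71.8, 35.9, 49.0, 64.9 and 20.2 CPM. Col5a2 thus separated the WD group from both sets of controls, and its log2 fold changes were 0.91 (SE 0.44) within batch 1 and 0.97 (SE 0.29, FDR 0.0581) against batch 2. Col5a3 ranged over 5.83 to 98.9 CPM in the batch 1 controls, 109 to 193 CPM in the WD group and 48.4 to 196 CPM in the batch 2 controls. Its fold change was 1.13 within batch 1 but -0.01 against batch 2, so that its separation from the batch 1 controls was not seen with the other controls. Col5a1 ranged over 0 to 178 CPM in the batch 1 controls, 30.2 to 98.8 CPM in the WD group and 47.7 to 79.1 CPM in the batch 2 controls. Col1a2, the partner chain of Col1a1, ranged over 370.4 to 741 CPM in the batch 1 controls, 505 to 824 CPM in the WD group and 289 to 635 CPM in the batch 2 controls, with fold changes of 0.18 and 0.33.

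Of the basement membrane collagens, Col15a1 was the only member called lower in WD. It encodes a collagen XV chain at the outer face of basement membranes. Col15a1 stood at 1.62, 57.0, 43.3 and 207 CPM in batch 1 controls 1 to 4 and 91.8, 59.9, 101, 106 and 173 CPM in WD libraries 1 to 5. Col15a1 in batch 2 controls 1 to 5 was at 200, 199.9, 316, 232 and 151 CPM. The batch 2 controls were the highest of the 3 groups, with 219.8 ± 61.1 CPM (SD, n = 5), while 1 WD library exceeded the lowest of them. The fold change was -1.06 (SE 0.27, FDR 0.0231) against batch 2. Within batch 1 it had the other sign, 0.46 (SE 0.81), where control 1 had 1.62 CPM and control 4 had 207 CPM, and it was 1.08 without both and 1.63 without control 4 alone. Without that pair of controls, edgeR called Col15a1 higher in batch 2 than in batch 1, by 2.13 (FDR 0.0136; background 0.209%). Col4a1 and Col4a2, which encode the chains of the most common collagen IV, ranged over 129 to 769 CPM in the batch 1 controls, 351 to 814 CPM in the WD group and 264 to 450.0 CPM in the batch 2 controls, and 49.6 to 310.4 CPM in the batch 1 controls, 163 to 259.5 CPM in the WD group and 64.2 to 194 CPM in the batch 2 controls. Their fold changes were 0.62 and 0.66 against batch 2 and 0.14 and 0.27 within batch 1, none of which passed edgeR's test, and DESeq2 called Col4a1 against batch 2. Col18a1, which encodes the precursor of endostatin, ranged over 34.7 to 153 CPM in the batch 1 controls, 24.1 to 70.0 CPM in the WD group and 35.1 to 60.1 CPM in the batch 2 controls.

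None of the 3 chains of collagen VI passed the test by edgeR. Col6a1, Col6a2 and Col6a3 had log2 fold changes of 0.85, 0.70 and 0.88 within batch 1. The values against batch 2 were 0.97 (SE 0.33, FDR 0.106), 1.14 (SE 0.38, FDR 0.0997) and 1.08 (SE 0.38, FDR 0.123). Col6a1 ranged over 17.9 to 106 CPM in the batch 1 controls, 62.5 to 197 CPM in the WD group and 28.1 to 76.9 CPM in the batch 2 controls. Col6a2 ranged over 6.37 to 100.1 CPM in the batch 1 controls, 47.2 to 159 CPM in the WD group and 17.9 to 71.8 CPM in the batch 2 controls. Col6a3 ranged over 9.51 to 128 CPM in the batch 1 controls, 24.8 to 172 CPM in the WD group and 30.7 to 63.9 CPM in the batch 2 controls, and its lowest WD value was in WD library 2, the library with the highest Col6a1 and Col6a2.

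Of the fibril-associated and short-chain collagens, Col16a1 was called against batch 2. It encodes a collagen found at the surface of fibrils. Col16a1 stood at 37.6, 1.92, 10.3 and 0 CPM in batch 1 controls 1 to 4 and 43.1, 25.8, 40.7, 52.1 and 31.5 CPM in WD libraries 1 to 5. Col16a1 in batch 2 controls 1 to 5 was at 5.93, 8.10, 12.6, 18.3 and 1.497 CPM. All WD values exceeded all batch 2 values, but batch 1 control 1 lay among the WD libraries and control 4 had no count. The fold change was 2.04 (SE 0.49, FDR 0.017) against batch 2 and 1.62 (SE 1.14) within batch 1, where it was 2.66 without controls 1 and 4 and 3.24 without control 1 alone. Col14a1, another fibril-associated collagen, ranged over 0 to 22.8 CPM in the batch 1 controls, 8.90 to 44.0 CPM in the WD group and 32.1 to 49.97 CPM in the batch 2 controls, and its fold changes had opposite signs, 0.68 (SE 1.11) within batch 1 and -0.93 (SE 0.38, FDR 0.203) against batch 2. Col8a1 and Col12a1 stayed at or below 31.7 CPM in all libraries. Each had no count in at least 1 control, so their fold changes are poorly determined.

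The laminins and nidogens had fold changes between -0.57 and 0.41 against the batch 2 controls and -0.25 and 0.68 within batch 1, and none passed. Lamb1, the laminin β1 chain, ranged over 60.7 to 299 CPM in the batch 1 controls, 92.1 to 206 CPM in the WD group and 184 to 246 CPM in the batch 2 controls. Lamc1, the γ1 chain, ranged over 3.67 to 60.9 CPM in the batch 1 controls, 49.4 to 78.1 CPM in the WD group and 27.2 to 85.2 CPM in the batch 2 controls. Lama4, the laminin α4 chain, ranged over 43.2 to 154 CPM in the batch 1 controls, 49.3 to 126 CPM in the WD group and 75.4 to 136 CPM in the batch 2 controls. Nid1, which links laminin to collagen IV, was the highest of the 5 genes in every library, with 152 to 620.2 CPM in the batch 1 controls, 383 to 646 CPM in the WD group and 287 to 451 CPM in the batch 2 controls. Nid2 reached at most 35.5 CPM.

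Fn1 encodes fibronectin, on which collagen fibrils are laid down. Fn1 measured 38.1, 49.0, 122 and 179 CPM in batch 1 controls 1 to 4 and 189.9, 155, 142, 161 and 276 CPM in WD libraries 1 to 5. Fn1 in batch 2 controls 1 to 5 was at 153, 145, 86.9, 169.6 and 113 CPM. WD libraries 1 and 5 were above all controls, and WD libraries 2, 3 and 4 overlapped with both control groups. Its log2 fold change was 0.93 (SE 0.44) within batch 1 and 0.46 (SE 0.23, FDR 0.33) against batch 2, and it passed in neither. Without batch 1 controls 1 and 4 the former was 1.11. Fbn1, the microfibril protein fibrillin 1, ranged over 3.67 to 41.8 CPM in the batch 1 controls, 23.7 to 55.6 CPM in the WD group and 15.1 to 39.0 CPM in the batch 2 controls. Eln, elastin, ranged over 0 to 60.5 CPM in the batch 1 controls, 8.33 to 37.4 CPM in the WD group and 8.67 to 26.1 CPM in the batch 2 controls, and it had no count in batch 1 control 4.

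Sparc, which encodes a collagen-binding matricellular protein, had the largest count of the 43 in every library. Sparc measured 906, 5073, 3509 and 8493 CPM in batch 1 controls 1 to 4 and 7002, 17930, 7971, 6389 and 7549 CPM in WD libraries 1 to 5. Sparc in batch 2 controls 1 to 5 was at 3634, 3048, 3915, 5457 and 4683 CPM. WD library 2 was the highest of all, and all WD values exceeded all batch 2 values, but batch 1 control 4 lay within the WD range. The log2 fold change was 1.16 (SE 0.27, FDR 0.015) against batch 2 and 1.06 (SE 0.65) within batch 1, where it was 1.13 without controls 1 and 4 and 1.55 without control 4 alone. Sparc alone held 0.632 to 1.504% of all counts in the WD libraries, 0.311 to 0.566% in the batch 2 controls and 0.0697 to 0.949% in the batch 1 controls. With the 42 other members added, the shares were 1.35 to 2.19%, 0.838 to 1.36% and 0.298 to 1.84%, so that the total overlapped between the groups.

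**Figure D2:**
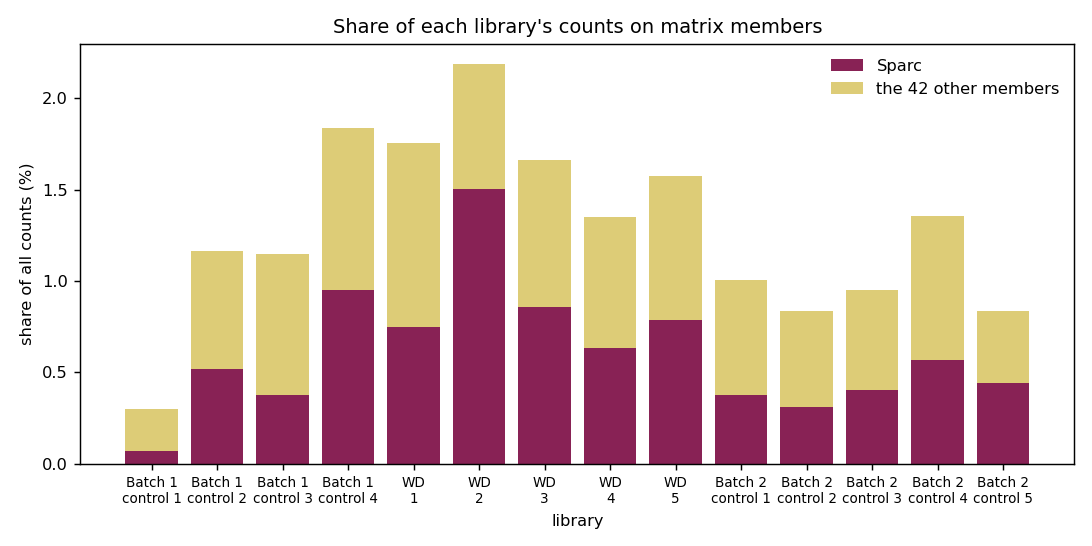
Share of each library's counts (y axis, %) that fell on Sparc (dark) and on the 42 other members (light), for the 14 libraries (x axis). WD library 2 has the highest total, 2.19%, of which Sparc makes up 68.7%, and batch 1 control 1 the lowest, 0.298%.

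Postn encodes periostin, a matricellular protein that binds collagen I and fibronectin. Postn measured 10.04, 47.3, 30.6 and 99.2 CPM in batch 1 controls 1 to 4 and 52.9, 51.5, 61.1, 64.5 and 70.8 CPM in WD libraries 1 to 5. Postn in batch 2 controls 1 to 5 was at 13.7, 25.4, 27.8, 46.5 and 23.6 CPM. The WD values were close to each other and above all batch 2 values, whereas the batch 1 controls spanned them from below and above. The fold change was 1.12 (SE 0.29, FDR 0.0265) against batch 2 and 0.36 (SE 0.51) within batch 1. Without batch 1 controls 1 and 4 the latter was 0.63, without control 1 alone 0.028 and without control 4 alone 1.02. Thbs1, thrombospondin 1, an activator of TGF-β, ranged over 25.3 to 221 CPM in the batch 1 controls, 48.7 to 70.2 CPM in the WD group and 33.3 to 136 CPM in the batch 2 controls, and its fold changes were below 0 in both comparisons, -0.77 and -0.79, without passing. Thbs2 ranged over 0.0726 to 124 CPM in the batch 1 controls, 28.6 to 93.0 CPM in the WD group and 21.9 to 51.3 CPM in the batch 2 controls. Tnc, tenascin C, ranged over 0 to 9.51 CPM in the batch 1 controls, 1.29 to 14.1 CPM in the WD group and 0 to 1.84 CPM in the batch 2 controls. It was at 0 in batch 2 controls 2 and 4 and in batch 1 control 4. Its fold changes were 3.36 (SE 1.33, FDR 0.174) against batch 2, 0.30 (SE 1.40) within batch 1 and -3.07 (SE 1.94) between the control batches.

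Lox was the member with the lowest FDR against batch 2. It encodes lysyl oxidase, the enzyme that starts the cross-linking of collagen and elastin. Lox measured 79.7, 204, 109.5 and 165 CPM in batch 1 controls 1 to 4 and 167, 287, 118, 141 and 117 CPM in WD libraries 1 to 5. Lox in batch 2 controls 1 to 5 was at 41.6, 31.4, 52.0, 40.4 and 31.4 CPM. The WD group and the batch 1 controls overlapped, and both lay wholly above the batch 2 controls. The log2 fold change was 2.06 (SE 0.27, FDR 0.000182) for WD against batch 2, but 0.25 (SE 0.37) for WD against batch 1 controls, which became 0.082 without controls 1 and 4. Between the control batches, on the same diet, it was -1.83 (SE 0.31, FDR 0.375), at an unadjusted p of 8.4e-05 in edgeR. Without batch 1 controls 1 and 4 edgeR called the difference between control batches too (-1.99, FDR 0.0118). Of its relatives, Loxl1 had fold changes of -0.41 and -0.26, and Loxl2 of -0.07 and 0.15, at levels up to 33.1 and 23.6 CPM, and neither passed.

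**Figure D3:**
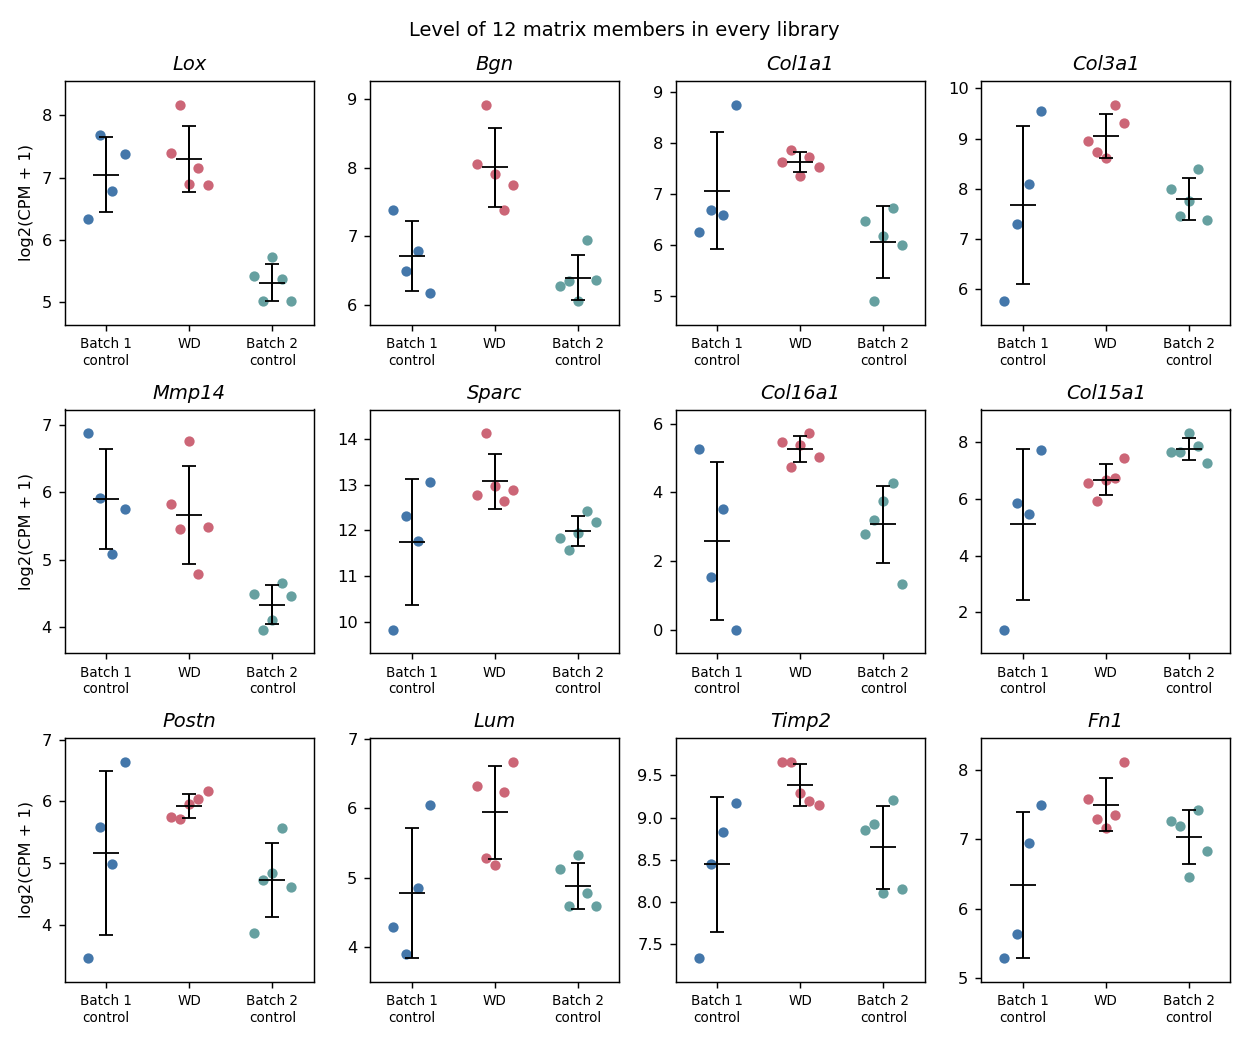
Level of the 12 members given in full, as log2(CPM + 1) (y axes, not starting at 0), in the batch 1 controls, the WD group and the batch 2 controls. Points are libraries and bars are the mean ± SD. Lox and Mmp14 are low only in batch 2, and for Bgn 1 batch 1 control reaches the lowest WD library.

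Bgn had the lowest p of the 43 within batch 1 and, after Lox, the lowest FDR against batch 2. It encodes biglycan, a small leucine-rich proteoglycan that binds collagen fibrils and, when released, can activate Toll-like receptors. Bgn measured 166, 89.2, 109 and 71.2 CPM in batch 1 controls 1 to 4 and 265, 484, 240.3, 165 and 215 CPM in WD libraries 1 to 5. Bgn in batch 2 controls 1 to 5 was at 76.3, 80.6, 65.3, 122 and 81.5 CPM. The WD group averaged 274 ± 123 CPM (SD, n = 5). The mean of the batch 1 controls was 109 ± 41.4 CPM (SD, n = 4), and that of batch 2 was 85.2 ± 21.6 CPM (SD, n = 5). All WD values exceeded all batch 2 values, and only batch 1 control 1 reached into the WD range, where it exceeded WD library 4. The log2 fold change was 1.67 (SE 0.27, FDR 0.00108) against batch 2 and 1.32 (SE 0.38, FDR 0.478) within batch 1, and 1.47 (FDR 0.155) without batch 1 controls 1 and 4. Between the control batches it was -0.37 (SE 0.30).

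Lum encodes lumican, which governs fibril spacing. Lum measured 18.6, 13.9, 27.8 and 65.4 CPM in batch 1 controls 1 to 4 and 79.3, 38.0, 35.4, 74.2 and 101 CPM in WD libraries 1 to 5. Lum in batch 2 controls 1 to 5 was at 33.9, 23.1, 39.1, 26.4 and 23.1 CPM. WD libraries 1, 4 and 5 were above all controls, and WD libraries 2 and 3 overlapped with both batches. The fold change was 1.16 (SE 0.31, FDR 0.033) against batch 2 and 1.06 (SE 0.52) within batch 1, where it was 1.66 without controls 1 and 4. Dcn, decorin, ranged over 851 to 2524 CPM in the batch 1 controls, 1442 to 3357 CPM in the WD group and 926 to 2245 CPM in the batch 2 controls, and its fold changes were 0.35 and 0.37. Fmod, fibromodulin, stayed at or below 19.3 CPM.

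Mmp14 encodes a membrane-bound metalloproteinase that cuts collagen and activates pro-MMP2. Mmp14 measured 116, 59.3, 32.8 and 52.6 CPM in batch 1 controls 1 to 4 and 55.7, 42.9, 108, 26.5 and 43.8 CPM in WD libraries 1 to 5. Mmp14 in batch 2 controls 1 to 5 was at 21.5, 14.6, 16.2, 24.1 and 20.96 CPM. As with Lox, batch 1 libraries of either diet lay above all batch 2 controls. The log2 fold change was 1.49 (SE 0.34, FDR 0.0118) for WD against batch 2, -0.25 (SE 0.47) within batch 1 and -1.76 (SE 0.41, FDR 0.445) between the control batches. Within batch 1 it turned to 0.27 without controls 1 and 4. Mmp2, gelatinase A, ranged over 0.508 to 26.8 CPM in the batch 1 controls, 6.65 to 40.4 CPM in the WD group and 4.45 to 12.5 CPM in the batch 2 controls, with fold changes of 1.63 (SE 1.03) and 1.69 (SE 0.51, FDR 0.0608). Mmp3, stromelysin 1, had counts in all 5 WD libraries, at 2.00 to 10.8 CPM, but in 1 of 4 batch 1 controls (3.17 CPM) and in 2 of 5 batch 2 controls (1.42 and 2.52 CPM). It did not pass edgeR's test, and limma on the log2 values called it against batch 2.

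Timp2 encodes an inhibitor of metalloproteinases that also takes part in the activation of MMP2. Timp2 measured 160.0, 348, 452 and 576 CPM in batch 1 controls 1 to 4 and 810.4, 805, 623, 585 and 568 CPM in WD libraries 1 to 5. Timp2 in batch 2 controls 1 to 5 was at 462, 484, 275, 589.8 and 283 CPM. The WD values were at the upper end, and batch 1 control 4 and batch 2 control 4 reached their range. The log2 fold change was 0.82 (SE 0.37) within batch 1 and 0.68 (SE 0.23, FDR 0.093) against batch 2, and the former was 0.76 without batch 1 controls 1 and 4. Timp3, the inhibitor bound to the matrix, ranged over 253 to 448 CPM in the batch 1 controls, 291 to 544 CPM in the WD group and 221 to 523 CPM in the batch 2 controls, with fold changes of 0.08 and 0.33. Timp1 stayed at or below 20.3 CPM and was at 0 in batch 1 control 4 and batch 2 control 2.

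Some members encode chains of the same protein or lie side by side in the genome, which the rule did not use. In the mm10 coordinates of the table, Col4a1 (chr8:11198423-11312826, minus strand) and Col4a2 (chr8:11312829-11449287, plus strand) are transcribed away from each other from starts 3 bases apart. Col3a1 and Col5a2 on chromosome 1 end 24.6 kb from each other, Dcn and Lum on chromosome 10 lie 47.3 kb apart, and Col6a2 and Col6a1 on chromosome 10 lie 85.4 kb apart. The log2 ratio of Col4a1 to Col4a2 counts varied least of the 10 pairs examined, with an SD of 0.36 over the 14 libraries and medians of 1.37, 1.38 and 1.38 in the batch 1 controls, the WD group and the batch 2 controls. For Col1a1 over Col1a2 the ratio was -2.07 to -1.19 in WD and -3.58 to -2.21 in batch 2, without overlap, but -2.97 to -0.13 in the batch 1 controls. The ratio of Lamb1 to Lamc1 had medians of 0.93 in WD, 2.23 in the batch 1 controls and 1.59 in the batch 2 controls, with overlapping ranges. These ratios are descriptions, and no test was run on them. They compare 3′ end counts, which also depend on how well each 3′ end is primed.

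The wider matrix gene set was also compared in each batch. Of 187 other matrix genes in 7 lists, 131 were tested against the batch 2 controls, of which 17 were higher and 1 lower in WD (background 3.93% and 2.48%), with a median log2 fold change of 0.45. Within batch 1, 133 were tested, with 0 called by edgeR and a median of 0.27. Between the control batches the median was -0.40 over 137 genes, 45 higher and 92 lower in batch 2, and edgeR called 0 of them. By list it was not uniform, at 0.22 for other elastic fibre genes, glycoproteins and proteoglycans and -0.028 for collagen processing genes. By list, the medians against batch 2 and within batch 1 were 0.61 and 0.54 for 17 collagen processing genes, 0.39 and 0.19 for 6 other collagens, and 0.55 and 0.30 for matrix receptors. They were 0.69 and 0.27 for proteases and inhibitors, and 0.40 and 0.41 for other elastic fibre genes, glycoproteins and proteoglycans. The sign differed between the comparisons for other basement membrane genes (0.37 and -0.30) and TGF-β signalling genes (0.37 and -0.37).

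The 8 other matrix genes with the lowest FDR against batch 2 included several proteases. The cathepsins Ctss and Ctsb, lysosomal proteases, had log2 fold changes of 2.95 (SE 0.32, FDR 3.4e-05) and 0.91 (SE 0.16, FDR 0.00253). Mmp12, macrophage elastase, had 3.99 (SE 0.51, FDR 0.000166), and Adam8, a leukocyte sheddase, 3.59 (SE 0.52, FDR 0.000409). Sparcl1, a relative of Sparc, was higher by 1.33 (SE 0.21, FDR 0.000824), and Nrros, which presents latent TGF-β on myeloid cells, by 1.62 (SE 0.29, FDR 0.00223). Fbln7, a fibulin, had no count in any batch 2 control and 8.34 ± 3.69 CPM in WD (SD, n = 5). Smoc1, a calcium-binding basement membrane protein, was lower, at -1.25 (SE 0.24, FDR 0.00313). Within batch 1 the same 8 genes had fold changes of 1.48, 0.79, 0.27, 0.24, 0.78, 1.02, 0.41 and -0.32 in the order named, and none passed. Collagen processing genes called higher against batch 2 were Colgalt1, Pcolce, Plod1 and Pcolce2, with fold changes of 1.13, 1.63, 0.95 and 0.94.

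Cell type markers were also compared between the groups. The summed level of 10 macrophage markers was 1920 to 3249 CPM in the WD group, 388 to 1849 CPM in the batch 1 controls, the highest in control 4, and 438 to 848 CPM in the batch 2 controls, and no marker was at 0 in a library. All 10 were called higher in WD against batch 2, and 0 within batch 1. The 10 adipocyte markers, of which none was at 0, summed to 26660 to 39590 CPM in WD, 6587 to 50100 CPM in the batch 1 controls and 56110 to 67930 CPM in batch 2. Against batch 2, 8 were called lower in WD and 1 higher. Within batch 1, 0 were called, with a median log2 fold change of 0.018. Between the control batches 0 were called either, with a median of 1.035, higher in batch 2. Markers of stromal progenitors, which make much of the fibrillar collagen, summed to 298 to 436 CPM in WD, 199 to 453 CPM in the batch 1 controls and 259 to 467 CPM in the batch 2 controls, and 0 of 10 were called. In these sums Thy1 and Fap were at 0 in 3 libraries each. Smooth muscle and pericyte markers summed to 208 to 680 CPM in WD, 527 to 935 CPM in batch 1 controls and 133 to 465 CPM in batch 2 controls, with Cnn1 at 0 in 6 and Notch3 at 0 in 7 libraries. Endothelial markers summed to 79.9 to 236 CPM in WD, 102 to 339 CPM in batch 1 controls and 86.0 to 204 CPM in batch 2 controls, and mesothelial ones to 21.7 to 140.1, 18.02 to 745 and 51.3 to 129 CPM. The 745 CPM was in batch 1 control 1, the library with epididymis RNA, where Krt18 alone had 515.8 CPM. In that library Msln, Upk3b, Wt1 and Bnc1 were at 0. Lymphocyte markers reached 69.9 CPM in 1 WD library and at most 8.94 CPM elsewhere, and red cell markers summed to 1912 to 10470 CPM over all libraries. None of the tested markers of these last 4 types or of smooth muscle was called. Of the 7 lymphocyte markers, only 2 could be tested within batch 1, 1 against batch 2 and 0 between the control batches. The part of these cells in the members' differences was not tested.

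**Figure D4:**
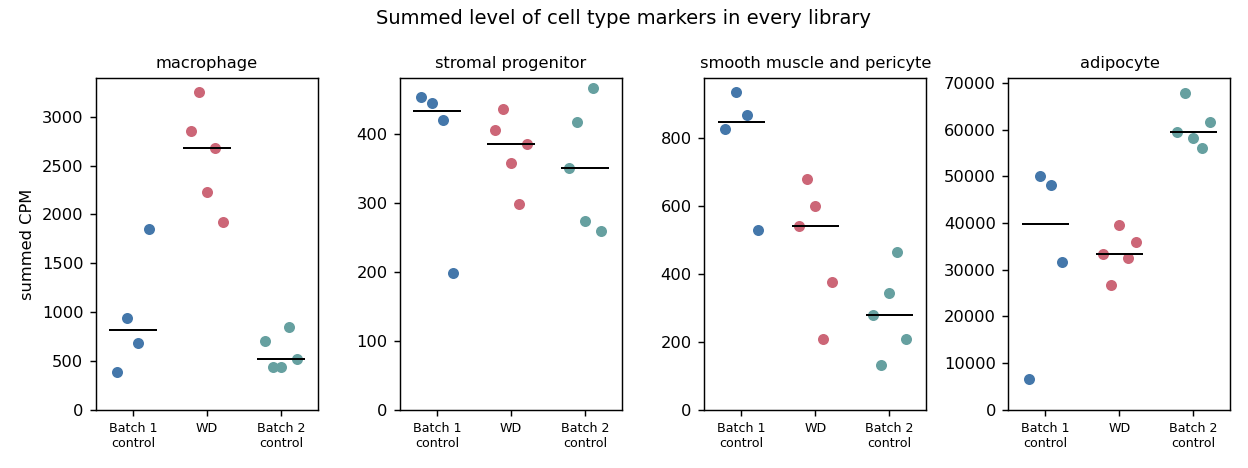
Summed CPM (y axes, from 0) of the markers of 4 cell types in each library, by group, with a line at the median. Macrophage sums are highest in the WD group, batch 1 control 4 coming closest at 1849 CPM, stromal progenitor sums overlap in all 3 groups, and adipocyte sums are highest in batch 2.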

How the data were processed

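Epididymal white adipose tissue RNA of 14 mice was sequenced with the QuantSeq 3′ mRNA kit (oligo-dT priming, single-end reads). The authors aligned the reads with Bowtie2 (build mm10 per the labels), used Bedtools coverage to count both unique and multiple alignments per gene, and deposited these raw counts. Reads of near-identical genes can therefore be counted more than once. The libraries were amplified by PCR, and no molecular identifiers are mentioned. The depth limits allow for counting error only and do not account for copies made in the amplification. Also deposited by the authors were log2 values after TMM and CPM normalization in edgeR, used here as an alternative.

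The counts were compared with edgeR 4.0.16 (quasi-likelihood test, TMM, edgeR's filter on low counts, no covariates) in R 4.3.3, with each pair of groups fitted alone, over all genes, with Benjamini-Hochberg adjustment (FDR, threshold 0.05). SE is the log2 fold change divided by the root of the F statistic. CPM values use TMM factors over the 14 libraries. Alternatives were DESeq2 1.42.0, limma-voom and limma 3.58.1 on the log2 values, and other scaling factors and filters. Further ones were 1 fit of 3 groups, 9 pooled controls, a replicate block, and leaving out libraries. The fit of 3 groups equals diet with a batch term, but in it WD against batch 2 still holds diet and batch together. The scripts were tested on simulated data. Tables and plots were made with Python 3.11.15, pandas 2.3.3 and matplotlib 3.10.9. Deposited gene positions overlapped RefSeq GRCm38.p6 for all 43 members.

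Members, lists and tests were chosen with earlier results of these data known. Members with an FDR under 0.05 in a comparison were given in full, filled up to 12 by the lowest unadjusted p within batch 1, and so were up to 8 other matrix genes per comparison. Libraries come from different mice, and p-values measure the spread between these mice. No 2 libraries of a group agreed within sampling noise.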

Additional observations from a re-analysis of the deposited data

Results flagged for a closer look

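In each of the 3 groups the highest or lowest library of each member was set against the rest of its group by Dixon's gap test, on log2(CPM + 1). Of 129 groups examined, 9 were flagged, where chance flags about 1 in 20 (6.45). In the WD group, Col5a1 was low in WD library 4 (4.965, the others 6.159 to 6.641), Nid2 was low in WD library 2 (2.313, the others 4.285 to 4.651), and Sparc was high in WD library 2 (14.131, the others 12.642 to 12.961). In the batch 1 controls, Col5a2 was low in control 1 (3.711, the others 5.954 to 6.112), the library that carries epididymis RNA. Control 4 was high for Col18a1 (7.271, the others 5.157 to 5.393) and low for Thbs2 (0.101 from 1 count, the others 5.812 to 6.965). Mmp3 was at 2.059 in control 3 (38 counts) and at 0 in the other batch 1 controls. In the batch 2 controls, Thbs1 was low in control 2 (5.099, the others 6.849 to 7.096) and Loxl1 was low in control 3 (3.747, the others 4.554 to 4.833). Without WD library 2, Sparc was called against the batch 2 controls as before, with a log2 fold change of 0.79 (FDR 0.00852 by edgeR).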

How the results depend on the processing

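Within batch 1, edgeR called 0 genes with each pair of groups fitted alone. It called 1 gene in 1 fit of all 14 libraries in 3 groups, 108 without batch 1 controls 1 and 4, and 0 to 48 when 1 library was left out, the 48 without batch 1 control 4. DESeq2 called 114, and 9 pooled controls without a batch term gave 67 genes, with 1 member (Bgn). Under the pooled controls the fold changes of Mmp14 and Col15a1 turned to 0.46 and -0.58, and without controls 1 and 4 that of Mmp14 turned to 0.27. Leaving out 1 library gave ranges through 0 for Lox (-0.044 to 0.46), Col1a1 (-0.079 to 1.11) and Mmp14 (-0.66 to 0.20). Against batch 2, the fit of 3 groups gave 140 genes and 2 members in place of 773 and 10, and DESeq2 gave 18 members. Leaving out 1 library gave 565 to 977 genes and 7 to 13 members. Between the control batches, all genes called numbered 1 in the fit of 3 groups, 111 with DESeq2, 28 without controls 1 and 4, and 0 to 2 with 1 library left out. The members called numbered 2 with DESeq2 and 2 (Lox and Col15a1) without controls 1 and 4. There the small fold changes of Col3a1, Sparc, Col16a1 and Lum turned to 0.13, 0.26, 0.51 and 0.12 with limma on the log2 values and to 0.10, 0.25, 1.82 and 0.052 with limma-voom. Without controls 1 and 4 those of Col3a1, Col16a1 and Lum were 0.10, 0.61 and 0.49. With 1 library left out, the ranges were -0.79 to 0.52 for Col3a1, -0.47 to 0.40 for Sparc, -0.84 to 1.19 for Col16a1, -0.37 to 0.55 for Lum and -0.14 to 0.40 for Timp2. The cause was not tested.

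Same-numbered libraries did not deviate together (correlations -0.04 to 0.08), which gave no sign of a pairing by number but cannot exclude a weak one. With the replicate block, 7 members were called against batch 2 in place of 10, and Mmp14, Sparc and Lum missed the threshold (FDR 0.061, 0.0727 and 0.111). Between the control batches the block turned Col3a1, Sparc, Col16a1 and Lum to 0.17, 0.15, 1.33 and 0.21.

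Members with no count in at least 2 libraries (Mmp3, Tnc, Timp1, Col8a1, Col12a1, Fmod) have wide standard errors in edgeR, which called none of them. Against batch 2, DESeq2 called Tnc, and limma on the log2 values called Tnc and Mmp3.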
